A study of Mus musculus with 6 samples.

Results

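The genes described here are 10 interferon-γ-induced GTPases measured in the livers of wild-type (WT) and chromogranin A knockout (CgA-KO) mice. They were taken by symbol from the deposited count table, which has 32212 rows, and all 10 were found and passed the filter on low counts, as did 13867 genes in all. Chromogranin A is a prohormone of neuroendocrine cells, and CgA-KO mice lack its gene, Chga. The mice were male C57BL/6 mice aged 2 yr that received a normal chow diet. Poly(A)-selected RNA from pieces of whole liver was sequenced, 1 library per mouse, from 3 WT and 3 CgA-KO mice. The 2 groups differ, as far as the labels say, only in the Chga deletion, which is present in every cell of the CgA-KO animals.

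Guanylate-binding proteins (GBPs) and immunity-related GTPases (IRGs) are the main GTP-binding effectors that interferon-γ switches on in mouse cells. Interferon-γ is made mostly by T cells and natural killer (NK) cells, and its receptor signals through the kinases JAK1 and JAK2. Promoters of the induced genes carry GAS elements and ISRE elements, and factors of the IRF family bind the latter. The GTPases then collect on the vacuoles of intracellular parasites and bacteria, break them open, and promote killing by autophagy proteins and inflammasomes. Within the IRGs, a regulatory group (Irgm1, Irgm2 and Igtp) stays on the membranes of the cell itself and holds the effector group (Iigp1, Ifi47 and Tgtp1) inactive there. Iigp1 is also known for an additional promoter that is active in hepatocytes without interferon.

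Total counts ran from 10558616 to 31087453 per library, and TMM factors, which scale the libraries to each other, from 0.756 to 1.12. Levels below are TMM-scaled CPM, counts as parts of the scaled library total, for which a floor of 3 counts, a limit of counting error alone, corresponds to between 0.0951 and 0.269 CPM. Chga was at 0 counts in all 6 libraries, WT included, so its count checks no label. Hepatocyte markers were abundant in every library, with Alb between 30668 and 66178 CPM. CgA-KO library 2 stood apart in some of its blood cell markers but not in all of them. Its summed level of 5 B cell markers was 35.7 CPM, against 105 and 40.7 CPM in CgA-KO 1 and 3. Its summed level of 8 neutrophil markers was 332 CPM, against 30.9 and 34.2 CPM in the other CgA-KO libraries and between 3.73 and 10.9 CPM in WT. Without this library the log2 fold changes of CgA-KO over WT were 2.09 for Gbp2, 2.07 for Gbp3, 1.67 for Gbp5, 1.53 for Gbp7, 1.09 for Irgm1, 1.13 for Irgm2, 1.16 for Igtp, -0.0036 for Iigp1, 1.84 for Ifi47 and 3.35 for Tgtp1.

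To find out how the GTPases differed between the genotypes, a quasi-likelihood test of genotype (edgeR) was run across all genes, and a gene was called at a Benjamini-Hochberg adjusted p-value under 0.05. Of the 10 GTPases, 9 were higher in CgA-KO liver and 0 were lower. Over all genes tested, 8.6% were called higher and 3.84% were called lower. The exception was Iigp1, whose log2 fold change was smaller than its standard error. The median log2 fold change of the 10 genes was 1.75, compared with -0.01 over all genes tested. In the same 9 genes every CgA-KO library lay above every WT library, an arrangement that 19% of all genes tested had. With 3 mice against 3, an exact two-sided permutation test of a single gene cannot go below p = 0.1, which was the value for each of the 9 genes, and it gave p = 0.8 for Iigp1.

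**Figure D1:**
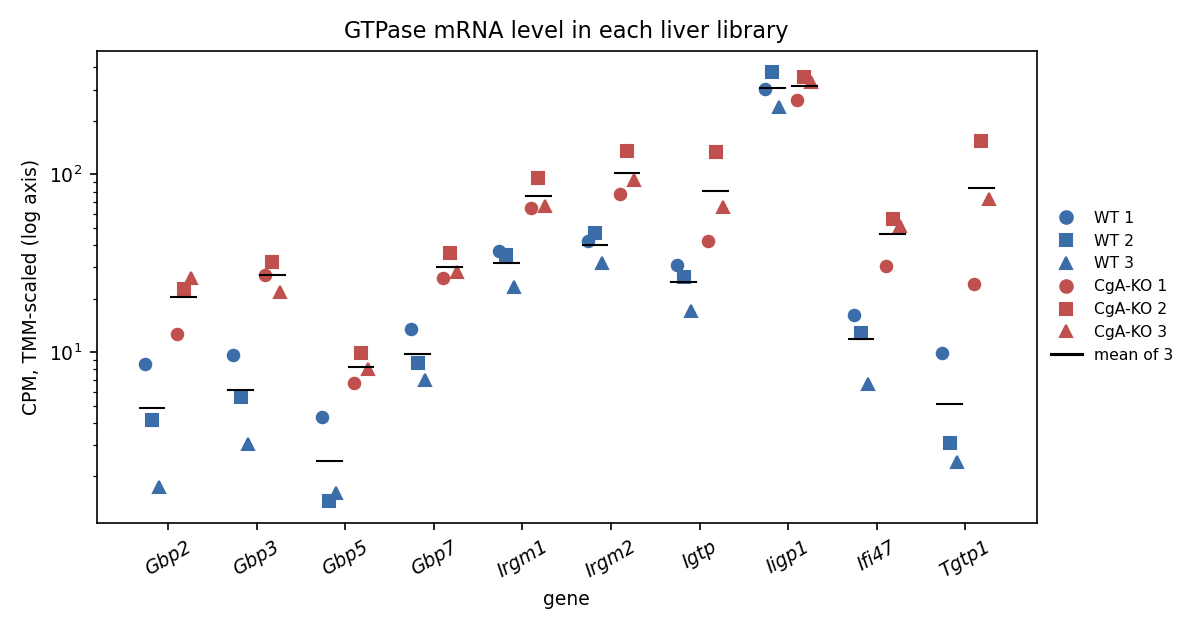
TMM-scaled CPM on a log axis for the 10 GTPase genes. Each point is 1 library (blue for WT, red for CgA-KO, with the symbol giving the replicate) and each black line is the mean of 3 libraries. The red points lie above all blue points for 9 genes and overlap them for Iigp1.

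The 4 GBP genes rose together. Gbp2, which acts on parasite vacuoles and cytosolic bacteria, was at 8.60, 4.13 and 1.74 CPM in the WT libraries 1, 2 and 3, and at 12.6, 22.7 and 26.2 CPM in the CgA-KO libraries 1, 2 and 3. The groups did not overlap, and the lowest CgA-KO library was 1.46 times the highest WT library. The log2 fold change of Gbp2 was 2.13 ± 0.52 (SE, edgeR adjusted p = 0.0302). This call was lost when any library other than WT 1 was left out, with log2 fold changes between 1.70 and 2.41 and adjusted p-values between 0.0535 and 0.170.

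Gbp3, its neighbour in the same gene cluster, was at 9.67, 5.62 and 3.05 CPM in WT and at 27.2, 32.0 and 21.9 CPM in CgA-KO. All 3 CgA-KO libraries were at least 2.27 times the highest WT library. The log2 fold change of Gbp3 was 2.17 ± 0.38 (SE, edgeR adjusted p = 0.0104), and it was 2.13 without WT 2 (adjusted p = 0.0629), the only library whose removal ended the call.

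Gbp5, which promotes assembly of the NLRP3 inflammasome, was the lowest of the GBPs, at 4.30, 1.45 and 1.61 CPM in WT and at 6.73, 9.93 and 8.07 CPM in CgA-KO. WT 1 was the highest of its group and still lay below every CgA-KO library. On the log2 scale the fold change was 1.80 ± 0.43 (SE, edgeR adjusted p = 0.0287). Like that of Gbp2, the Gbp5 call held only without WT 1, and leaving out any other library gave log2 fold changes between 1.52 and 1.95 with adjusted p-values between 0.0628 and 0.120.

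Gbp7, which is known to help assemble the phagocyte NADPH oxidase, was the only one of the 9 called genes whose call held without each library in turn. Its level was 13.5, 8.64 and 6.99 CPM in WT and 26.2, 36.3 and 28.1 CPM in CgA-KO. The CgA-KO libraries varied by a factor of 1.39 among themselves and were all at least 1.94 times the highest WT library. The log2 fold change of Gbp7 was 1.65 ± 0.27 (SE, edgeR adjusted p = 0.00812), and the fits without 1 of the 6 libraries gave adjusted p-values between 0.00148 and 0.0392.

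The 3 regulatory IRG genes also rose, with log2 fold changes between 1.25 and 1.70. Irgm1, a guardian of self membranes that also acts in autophagy of mitochondria, was at 36.8, 35.2 and 23.3 CPM in WT and at 64.5, 95.9 and 66.4 CPM in CgA-KO. Its WT libraries varied by a factor of 1.58, with WT 3 the lowest, and its lowest CgA-KO library was 1.75 times the highest of them. Its fold change on the log2 scale was 1.25 ± 0.25 (SE, edgeR adjusted p = 0.0149), and 1.07 without WT 3 (adjusted p = 0.0753).

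Irgm2, which restrains inflammasome activation by bacterial lipopolysaccharide, was at 42.1, 46.5 and 31.6 CPM in WT and at 77.7, 135 and 92.7 CPM in CgA-KO. The groups were separate, with CgA-KO 2 the highest. For Irgm2 the log2 fold change was 1.35 ± 0.26 (SE, edgeR adjusted p = 0.0137), and 1.19 without WT 3 (adjusted p = 0.0764).

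Igtp, also called Irgm3, is a regulator found on the endoplasmic reticulum. It was at 31.1, 26.4 and 17.1 CPM in WT and at 42.3, 134 and 65.4 CPM in CgA-KO. CgA-KO 2 had 3.17 times the level of CgA-KO 1, so that the mean of this group rested in large part on 1 library. The log2 fold change of Igtp was 1.70 ± 0.41 (SE, edgeR adjusted p = 0.0295). Without CgA-KO 2 it was 1.16 (adjusted p = 0.0624), and the call was also lost without WT 2 (1.75, adjusted p = 0.143) and without WT 3 (1.49, adjusted p = 0.147).

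The effector IRGs ranged from the largest log2 fold change of the set (Tgtp1) to the smallest (Iigp1), with Ifi47 between them. Ifi47, an effector that loads onto parasite vacuoles, was at 16.2, 12.8 and 6.61 CPM in WT and at 30.4, 56.1 and 51.4 CPM in CgA-KO. There was no overlap, and the log2 fold change was 1.96 ± 0.35 (SE, edgeR adjusted p = 0.0112). Without WT 2 the Ifi47 value was 2.04 (adjusted p = 0.0633).

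Tgtp1, also known as Irgb6 and first described as a T cell GTPase, was at 9.85, 3.06 and 2.41 CPM in WT and at 24.2, 153 and 72.8 CPM in CgA-KO. All CgA-KO libraries were above WT, but they varied by a factor of 6.33 among themselves, more than for any of the other 9 genes. For Tgtp1 the log2 fold change was 4.10 ± 0.75 (SE, edgeR adjusted p = 0.0122). It was 3.35 without CgA-KO 2, and the call was lost without WT 2 (3.83, adjusted p = 0.113) and without WT 3 (3.73, adjusted p = 0.104). Tgtp1 was among the top differential genes that the study displayed from these libraries, so its place in the set is not independent of them. Of the 31-base stretches in its annotated transcripts, 83.2% also occur in Tgtp2, so that counts cannot be assigned with certainty to 1 gene of the pair. Tgtp2 was at 6.00, 3.49 and 1.61 CPM in WT and at 14.4, 28.6 and 22.3 CPM in CgA-KO, a log2 fold change of 2.60 ± 0.45 (SE, edgeR adjusted p = 0.0104). In CgA-KO 2 the reads were divided 153 to 28.6 between them, and in CgA-KO 1 24.2 to 14.4.

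Iigp1, an effector IRG also known as Irga6, was the 1 gene of the 10 that was not called. Its level was 303, 376 and 240 CPM in WT and 262, 352 and 332 CPM in CgA-KO. The highest library was a WT library, and the 2 groups overlapped over most of their range. Between the genotypes the log2 fold change was 0.04 ± 0.24 (SE, edgeR adjusted p = 0.933), and it lay between -0.11 (without WT 3) and 0.21 when single libraries were left out.

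Because Iigp1 was so abundant, it held 69.1% of the summed CPM of the 10 genes in WT and 40.0% in CgA-KO. The sum of the other 9 genes was 3.46 times as high in CgA-KO as in WT. By class, the summed level of the GBPs was 3.72 times as high that of the regulatory IRGs 2.67 times and that of the effector IRGs, which include Iigp1, 1.38 times as high. CgA-KO 2 was the highest library for 8 of the 10 genes, with Gbp2 (CgA-KO 3) and Iigp1 (WT 2) as the exceptions. Within WT, library 1 was the highest for Gbp2, Gbp3, Gbp5, Gbp7, Irgm1, Igtp, Ifi47 and Tgtp1, and library 3 the lowest for all but Gbp5. The ordering within genotypes was thus largely shared by the 10 genes. Without CgA-KO 2, 6 of the 10 genes were still called, and the median log2 fold change was 1.60. Without WT 2, and likewise without WT 3, 3 of the 10 genes were called, with medians of 1.66 and 1.52.

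Per kilobase of annotated exon, which allows levels to be compared between genes, Iigp1 led in WT liver at 52.6 ± 11.6 CPM per kilobase (SD, n = 3). Igtp (12.3 ± 3.51) and Irgm2 (10.9 ± 2.07) followed, within 1 SD of each other. Irgm1 (5.47 ± 1.27) and Ifi47 (4.81 ± 1.97) came next, also within their spread. Gbp2 (1.92 ± 1.38), Gbp3 (1.87 ± 1.02), Gbp7 (1.73 ± 0.605) and Tgtp1 (1.59 ± 1.29) could not be ordered beyond their spread, and Gbp5 was the lowest at 0.369 ± 0.241.

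In CgA-KO liver, Iigp1 (54.2 ± 8.16) and Igtp (39.9 ± 23.6 CPM per kilobase, SD, n = 3) no longer differed beyond 1 SD. Irgm2 (27.6 ± 8.04), Tgtp1 (26.0 ± 20.3) and Ifi47 (18.6 ± 5.55) overlapped one another. Irgm1 was at 13.0 ± 3.03, Gbp3 at 8.28 ± 1.54, Gbp2 at 8.14 ± 2.81, Gbp7 at 5.38 ± 0.955 and Gbp5 at 1.24 ± 0.242. Tgtp1 was thus among 4 genes of like level near the bottom of the order in WT. In CgA-KO its mean was at rank 4, but 1 SD around it took in the levels of Igtp, Irgm2, Ifi47, Irgm1, Gbp3 and Gbp2. Its place there was therefore not settled. Per kilobase of the longest transcript instead, Iigp1 stayed at rank 1 and Gbp5 at rank 10.

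The rest of the family was described from a list of 17 other interferon-inducible GTPases, of which 16 were in the table and were tested. Of these, 11 were higher in CgA-KO and 0 lower, with a median log2 fold change of 2.03. Among further GBPs, the log2 fold change was 3.54 ± 0.96 for Gbp2b (SE, edgeR adjusted p = 0.0452), 2.43 for Gbp4, 1.96 for Gbp6, 2.62 for Gbp9 and 1.93 for Gbp10, all of which were called. The Gbp2b call was lost in 5 of 7 other settings, among them limma-voom (adjusted p = 0.107), library size alone (0.0689) and a filter of a total of at least 1 count (0.229), and it held in 2 of 6 fits without 1 library. The Gbp2b libraries overlapped, with CgA-KO 3 at 3.68 CPM below WT 1 at 4.66 CPM, and this gene was also displayed by the study from these libraries. Gbp8 (1.77, adjusted p = 0.0672) and Gbp11 (0.94, adjusted p = 0.165) did not pass.

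Among further IRG genes, Tgtp2 (2.60), Gm5431 (2.67), 9930111J21Rik1 (2.71) and 9930111J21Rik2 (2.10) were called higher. In this order, 90.5%, 47.2%, 88.3% and 69.5% of their 31-base stretches also occur in other annotated genes, so their counts may not be separate. Gvin1, a very large interferon-inducible GTPase, rose by 1.96 on the log2 scale, although 99.7% of its 31-base stretches occur in other annotated genes. Mx1, a GTPase gene more typical of type I interferon, rose by 3.16, while Mx2 had a log2 fold change of 1.12 (adjusted p = 0.0541). The count of 11 fell to 6 without WT 2, 3 without WT 3, 7 without CgA-KO 1 and 5 without CgA-KO 2.

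The 3 IRG genes with log2 fold changes near or below 0 lay on 1 chromosome. By the GENCODE annotation of GRCm38, 9 of the 26 tested family genes are on chromosome 11, and all 9 were called higher. Some of these genes share much of their sequence, as given above, so the 9 calls may not be separate. On chromosome 3, 5 of 5 were called higher (Gbp2b among them), and on chromosome 5, 4 of 6. Gbp6 and Gbp10, which share sequence as given above, are among those on chromosome 5, so these calls may not be separate either. None of the 3 on chromosome 18 was called (DESeq2 called 1, F830016B08Rik, as lower). These are Iigp1 (60376027 to 60392634), Gm4951 (log2 fold change -0.41, edgeR adjusted p = 0.209) and F830016B08Rik (log2 fold change -1.18, edgeR adjusted p = 0.0563). Gm4951 was at 106, 98.1 and 90.1 CPM in WT and at 64.3, 66.3 and 90.1 CPM in CgA-KO. F830016B08Rik was at 68.6, 29.7 and 77.3 CPM in WT and at 25.5, 19.7 and 32.2 CPM in CgA-KO, and the groups overlapped. At unadjusted p-values of 0.0688 for Gm4951 and 0.00768 for F830016B08Rik, both values pointed opposite to those of the GTPases on the other chromosomes.

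**Figure D2:**
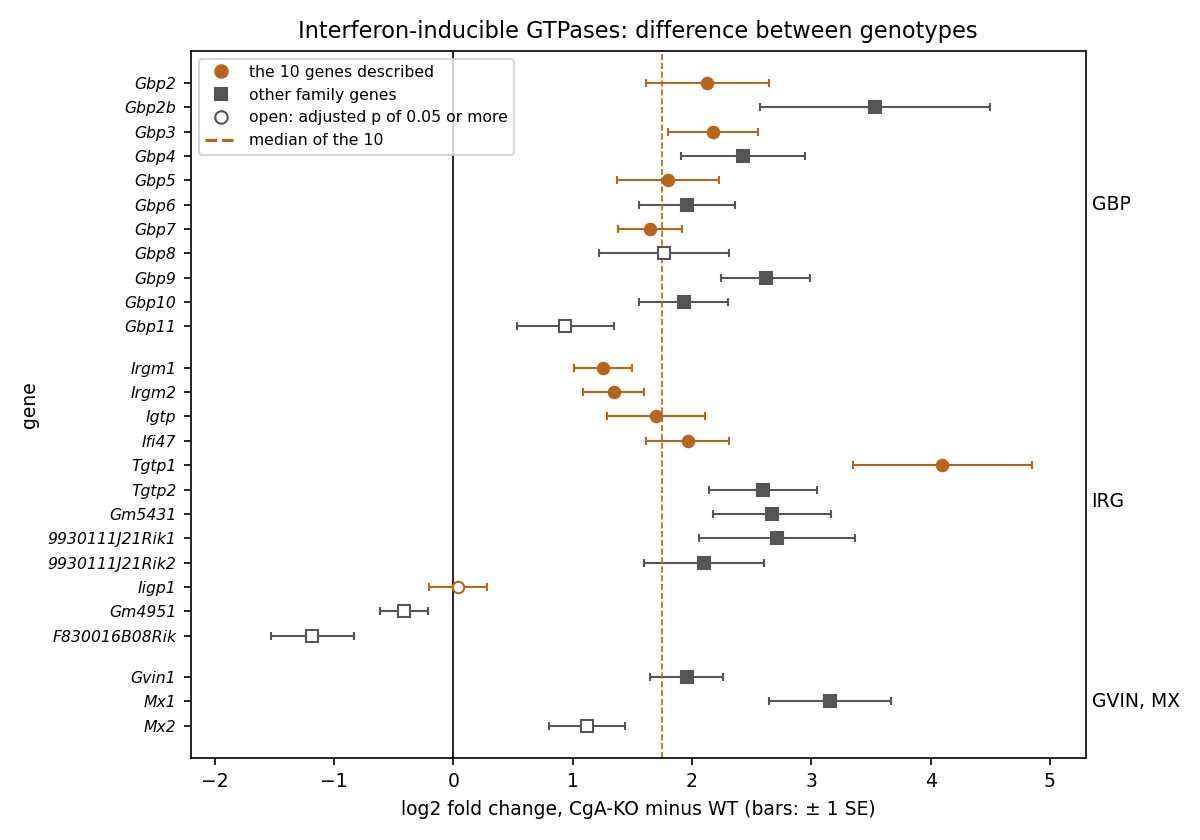
Log2 fold change (CgA-KO minus WT, bars ± 1 SE) of the 10 GTPases (circles) and of 16 other family genes (squares). Filled symbols have an adjusted p under 0.05. All but 2 values lie to the right of 0, and Iigp1 (0.04), Gm4951 (-0.41) and F830016B08Rik (-1.18) stand at the left.

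The genes around the GTPases were read from the same fit. Within 100 kb of the 10 genes, 16 genes outside the family were tested. Over all genes tested 8.6% were called higher and 3.84% lower, and among these 16 genes 2 were called higher and 0 lower. One is Olfr56, whose annotated span overlaps Ifi47 (log2 fold change 2.01, adjusted p = 0.0238), so that reads of the pair may not be told apart. The other is Smim3, near Iigp1 (1.60, adjusted p = 0.0483). Both had low levels, with means of 0.461 CPM (Olfr56) and 0.459 CPM (Smim3) in WT and of 1.89 and 1.43 CPM in CgA-KO. GTPases that share a fold with the GBPs and IRGs but are not known to respond to interferon were also examined. None of 6 tested (Irgq, Atl1, Atl2, Atl3, Dnm1l and Dnm2) was called, with log2 fold changes between -0.35 and 0.31. Of the 6, 0 had an unadjusted p under 0.05, and DESeq2 called 0.

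Upstream sequence was read for those of the 10 genes that had a promoter window, so that of Iigp1 was not searched. RefSeq promoter windows (GRCm38.p6) were matched for 9 of the 10 genes (all but Iigp1), and the 250 bases before each start were searched on both strands for GAS letters (TTCNNNGAA) and ISRE letters (GAAANNGAAA). ISRE letters were present upstream of 8 genes and GAS letters upstream of 5, and all 5 with GAS letters also had ISRE letters. Of 32851 windows in all, 2.98% held ISRE letters, 7.02% GAS letters and 0.332% both. Ifi47 had neither within its window, although its RNA rose, and Gbp2, Gbp3 and Irgm1 had ISRE letters only.

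Of the 6 stretches printed, the first 3 show the arrangement that Irgm2, Igtp and Tgtp1 shared, in which GAS letters begin 11 bases before ISRE letters. The other 3 show the GBP genes, where the letters are spaced differently. Capitals mark GAS or ISRE letters on either strand. Each stretch is given 5′ to 3′ on the strand of its gene from RefSeq and contains no annotated exon base. Irgm2 is at chr11:58214857-58214976 (plus strand, inside an intron of a longer Irgm2 transcript) and Igtp at chr11:58199436-58199555 (plus strand, outside annotated genes). Tgtp1 is at chr11:48992259-48992366 (minus strand, intronic in longer transcripts of Tgtp1 and of Olfr56). Gbp3 is at chr3:142559924-142560025 and Gbp7 at chr3:142530216-142530335, both on the plus strand and outside annotated genes, and Gbp5 is at chr3:142496764-142496899 (plus strand, inside an intron of a longer Gbp5 transcript).
Irgm2: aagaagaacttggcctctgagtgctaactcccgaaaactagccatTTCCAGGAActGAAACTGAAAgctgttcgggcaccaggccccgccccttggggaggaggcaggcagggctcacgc
Igtp: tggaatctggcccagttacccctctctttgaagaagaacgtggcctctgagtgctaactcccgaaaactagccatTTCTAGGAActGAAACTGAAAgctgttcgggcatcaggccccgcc
Tgtp1: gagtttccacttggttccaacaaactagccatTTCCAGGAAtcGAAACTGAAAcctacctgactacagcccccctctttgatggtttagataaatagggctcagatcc
Gbp3: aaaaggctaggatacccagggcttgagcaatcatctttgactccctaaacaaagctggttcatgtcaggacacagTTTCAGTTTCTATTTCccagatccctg
Gbp5: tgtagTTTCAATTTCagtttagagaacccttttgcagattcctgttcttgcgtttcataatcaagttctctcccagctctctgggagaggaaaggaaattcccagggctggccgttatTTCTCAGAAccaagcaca
Gbp7: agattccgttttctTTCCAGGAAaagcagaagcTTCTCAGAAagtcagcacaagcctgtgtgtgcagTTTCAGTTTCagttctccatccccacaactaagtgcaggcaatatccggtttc

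The arrangement of GAS letters 11 bases ahead of ISRE letters was found in 5 of the 32851 windows (0.0152%), which belong to Igtp, Irgm2, Tgtp1, Tgtp2 and Gm12185. The longest identical run that Irgm2 and Igtp shared was 38 bases and that of Irgm2 and Tgtp1 20 bases, so the 3 stretches are not separate instances. These genes had log2 fold changes of 1.35 (Irgm2), 1.70 (Igtp), 4.10 (Tgtp1), 2.60 (Tgtp2) and 2.28 (Gm12185, adjusted p = 0.0587), the last of which overlaps Tgtp1. The GBP stretches shared at most 13 bases with each other (Gbp3 and Gbp7). In Gbp3, ISRE letters occurred as an overlapping pair 45 to 30 bases before the start, and in Irgm1, not printed, 30 to 15 bases before it. A match of letters is a description and does not show binding. With the shorter ISRE letters AANNGAAA 9 genes had a match, as did 21.3% of all windows. With TTNCNNNAA, another form of GAS letters that does not hold every match of the form above, 8 genes had a match, as did 32.9% of all windows.

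**Figure D3:**
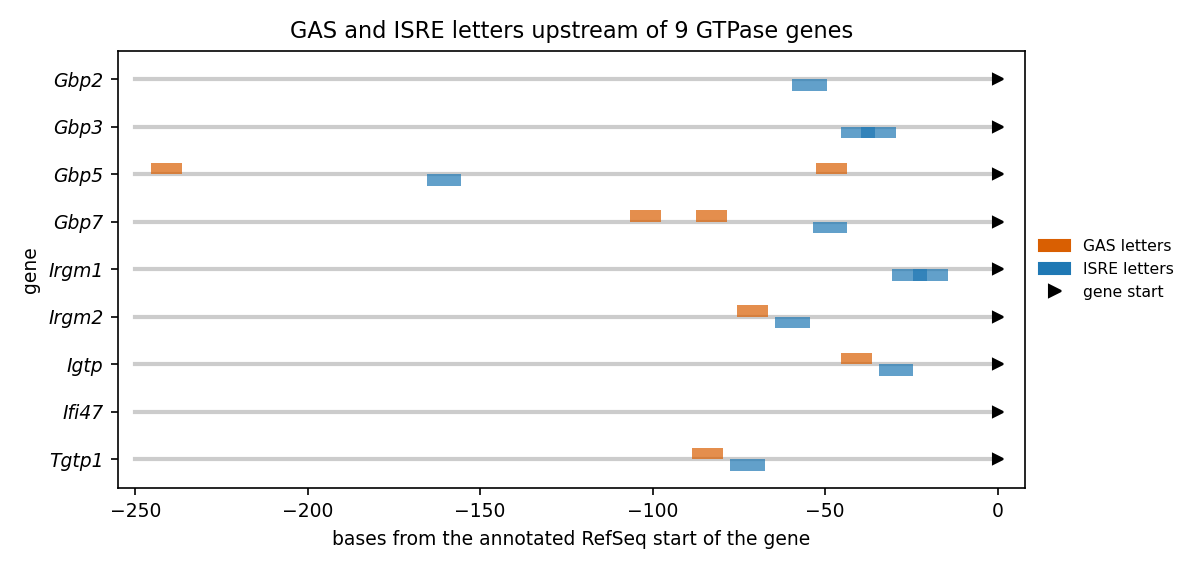
Positions of GAS letters (orange) and ISRE letters (blue) in the 250 bases before the RefSeq start (arrowhead) of 9 GTPase genes. In Irgm2, Igtp and Tgtp1 the orange box directly precedes the blue one, and Ifi47 has no box.

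To place the GTPases in their pathway, genes of interferon-γ signalling were read from the same fit. Ifng itself, the cytokine, had 3, 1 and 2 counts in WT and 7, 16 and 4 counts in CgA-KO. These counts were too low for the filter, and the largest, in CgA-KO 2, corresponds to 0.507 CPM. Fitted without the filter, the log2 fold change of Ifng was 1.55 (edgeR adjusted p = 0.349), so a difference was not detectable at this depth.

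Of 10 tested genes of the signalling list, 5 were called higher and 0 lower, with a median log2 fold change of 1.08. Ifngr1, the ligand-binding receptor chain, was at 16.4, 13.2 and 13.1 CPM in WT and at 50.5, 55.2 and 29.9 CPM in CgA-KO, a log2 fold change of 1.67 ± 0.25 (SE, edgeR adjusted p = 0.00622). The Ifngr1 groups were separate, with CgA-KO 2 the highest library, as in most of the GTPases.

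The factors Irf1 (0.97, adjusted p = 0.0162) and Irf8 (1.95, adjusted p = 0.00774), which act on GTPase promoters, were also higher, as was the feedback inhibitor Socs3 (1.26, adjusted p = 0.0380). The Socs3 call was lost with limma-voom (adjusted p = 0.0501), without WT 2 (0.131), without WT 3 (0.129) and without CgA-KO 2 (0.82, adjusted p = 0.0737). Ifngr2, the other receptor chain, had a log2 fold change of 0.23 (adjusted p = 0.578). Jak1 (0.54, adjusted p = 0.121), Jak2 (0.45, adjusted p = 0.178), the phosphatase gene Ptpn2 (0.32, adjusted p = 0.327) and the inhibitor Socs1 (2.24, adjusted p = 0.107) did not pass either. Without WT 2 or without CgA-KO 2 the count of 5 was 3, and without WT 3 it was 2.

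Of the genes that drive interferon-γ production, 5 were tested and 1 was called higher, beside 8.6% of all genes tested. This was Stat4, the transducer of interleukin-12 signals in T and NK cells, with a log2 fold change of 4.03 (adjusted p = 0.0253). Stat4 was at 12.5 CPM in CgA-KO 2 and at 2.46 and 1.12 CPM in the other CgA-KO libraries, and its log2 fold change without CgA-KO 2 was 2.46 (adjusted p = 0.0589). The Stat4 call was also lost without WT 1, WT 2 or WT 3 (adjusted p = 0.0564, 0.162 and 0.162) and with limma-voom (3.47, adjusted p = 0.129). Eomes, a T and NK cell factor with a log2 fold change of 5.47 (adjusted p = 0.0544), was at 19.3 CPM in CgA-KO 2 and at most 1.08 CPM in every other library.

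Other genes that interferon-γ induces were read in the same way. Of 16 tested, 9 were called higher and 0 lower, with a median of 1.25. Cd74, the invariant chain of MHC class II, and Cxcl10, a T cell chemokine, each had a log2 fold change of 2.76. The count of 9 was 3 without WT 2, 3 without WT 3 and 4 without CgA-KO 2, and it was 6 without CgA-KO 1. Cd74 was also displayed by the study from these libraries.

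Genes more typical of type I interferon rose as well. Of 18 tested, 12 were called higher and 0 lower, with a median of 1.79, beside 1.75 for the 10 GTPases. Ifit2 (3.16) and Rsad2 (3.14), 2 antiviral genes, had the largest changes. The count was 6 without WT 3. None of the 3 tested genes of the type I receptor complex (Ifnar1, Ifnar2 and Tyk2) was called by edgeR or DESeq2, with 0 at an unadjusted p under 0.05.

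The GTPases act on membranes together with the autophagy conjugation machinery and feed into inflammasomes. Of 10 tested genes of the conjugation machinery, 0 were called in either direction by edgeR or DESeq2, 0 had an unadjusted p under 0.05, and the median log2 fold change was -0.10 (2 were called with scaling by library size alone). Of 8 inflammasome genes, 4 were called higher and 0 lower, led by Nlrp3 (2.85), the sensor whose assembly GBP5 promotes, and Aim2 (2.71), a sensor of cytosolic DNA. Without CgA-KO 1 the inflammasome count was 2.

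**Figure D4:**
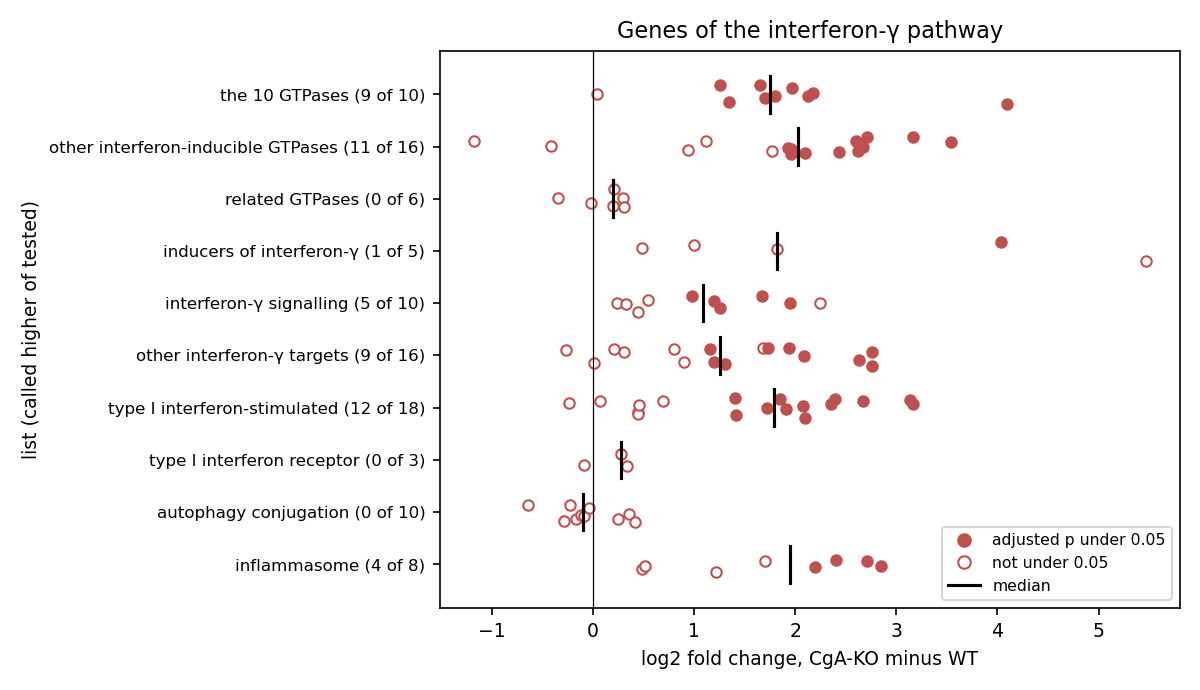
Log2 fold change (CgA-KO minus WT) of each tested gene in 10 lists; filled points have an adjusted p under 0.05, black bars are medians, and the number called higher of those tested stands beside each list. The GTPases (median 1.75) and the type I interferon-stimulated genes (1.79) lie to the right, and the autophagy genes (-0.10) around 0.

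Most tested markers of Kupffer cells, monocytes and dendritic cells, T and NK cells and neutrophils had log2 fold changes above 0, called or not, as had the GTPases. For the B cell markers the median log2 fold change was 0.01. In a bulk liver sample, more cells of a type and more RNA per cell cannot be told apart. Ptprc, which encodes the pan-leukocyte protein CD45, was at 23.5, 4.81 and 7.41 CPM in WT and at 72.2, 75.0 and 50.2 CPM in CgA-KO, a log2 fold change of 2.50 ± 0.52 (SE, edgeR adjusted p = 0.0179). Of 12 Kupffer cell markers, among them Clec4f, Vsig4 and Timd4, 10 were called higher, with a median of 3.03, and their summed level ran from 303 to 469 CPM in WT and from 1639 to 2351 CPM in CgA-KO. Of 13 tested T and NK cell markers, including Cd3e, Cd3d and Cd3g, 10 were called higher, with a median of 3.60. Cd4 (edgeR adjusted p = 0.0983), Gzma (0.175) and the NK cell gene Klrb1c (0.211) were not called. Ncr1, also an NK cell gene, did not pass the filter on low counts. The summed level of the T and NK cell list ran from 6.64 to 20.2 CPM in WT and was 68.6, 212 and 67.8 CPM in CgA-KO 1, 2 and 3. Cd4, Gzma and Klrb1c were lower in CgA-KO 2 than in CgA-KO 1, so this sum does not stand for every marker.

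Of 8 monocyte and dendritic cell markers, 4 were called higher, Ccr2 and Fcgr4 among them but not Ly6c2 (adjusted p = 0.0715). Of 4 tested neutrophil markers 2 were called higher, S100a8 and S100a9. Mpo, a gene of neutrophil precursors, was at 0 in WT and at 66.8 CPM in CgA-KO 2. None of 5 B cell markers (Cd79a, Cd79b and Ms4a1 among them) and none of 10 hepatocyte markers (Alb, Ttr and Apoa1 among them) was called by edgeR, with 0 and 1 at an unadjusted p under 0.05, and DESeq2 called 0 and 1. The summed level of the B cell markers was 111 CPM in WT 1, which also had the highest Ptprc level in WT, compared with 25.5 and 18.3 CPM in WT 2 and 3. Of 7 stellate cell markers 3 were called higher, Dcn among them, whereas Lrat and Des were not called. Of 8 sinusoidal endothelial markers, 1 was called higher and 1 lower, beside 8.6% and 3.84% of all genes tested. The lower one was Clec4g, and Stab2 and Oit3, which head that list with it, were not called. Of 5 bile duct markers (Krt19, Krt7 and Epcam first) 0 were called (1 at an unadjusted p under 0.05, 0 by DESeq2). Of 5 tested erythroid markers, 2 were called higher and 1 lower. Hba-a2 was among the higher ones, and Hba-a1 was not called (adjusted p = 0.0573). The part of any of these cell types in the GTPase differences was not tested.

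**Figure D5:**
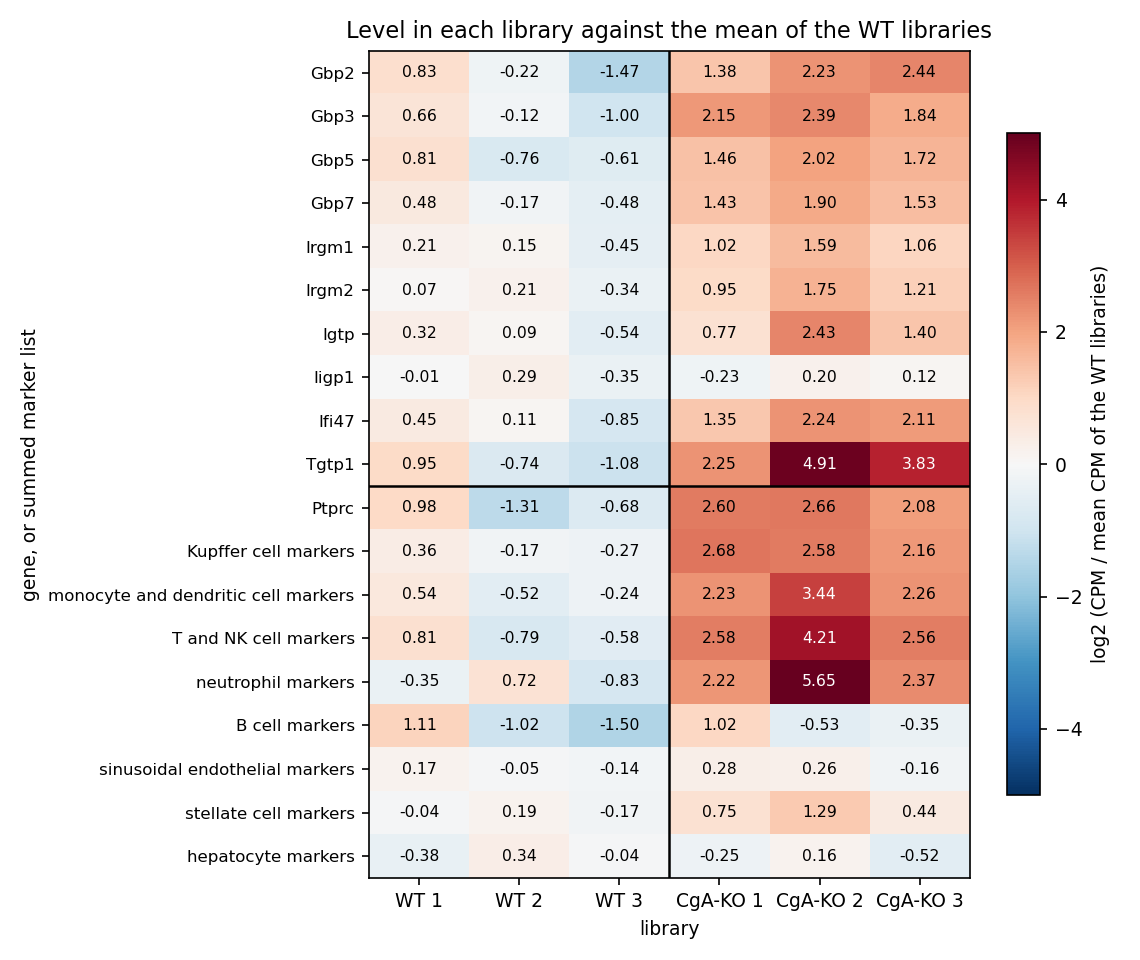
Log2 ratio of each library to the mean of the 3 WT libraries, in colour and as numbers, for the 10 GTPases, Ptprc and 8 summed marker lists. In CgA-KO 2, Tgtp1 (4.91) and the neutrophil (5.65) and T and NK cell markers (4.21) have the highest ratios, while Iigp1 and the hepatocyte markers stay near 0 in all libraries.

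Genes whose levels followed the GTPases most closely were ranked by Pearson correlation with the mean standardised log2 CPM of the 10 genes over the 6 libraries. The closest outside the set were Thbd, Ywhaz, Lgals3, Ctps2, Ngfr, Cd52, Pam, Cotl1, Tgtp2 and Lama2, with r between 0.993 and 0.999. Such values describe 6 libraries that fall into 2 genotypes, and 724 genes, or 5.22% of those outside the set, had r above 0.9. Lgals3, a lectin of macrophages, had a log2 fold change of 2.14, and Cd52, a leukocyte surface protein, of 2.39. Ywhaz, an adaptor protein gene, had a log2 fold change of 0.50 (adjusted p = 0.141). Of the 10 GTPases themselves, 9 had r between 0.93 and 0.99 with this mean and Iigp1 had 0.47. Each of the 10 is part of the mean, which raises its r. After the genotype means were subtracted, the closest genes were C1qtnf7, Jpt1, Fen1, Cdt1 and Msmo1, with r between 0.994 and 0.998. Iigp1 then had r = 0.73 with the mean of the 10, of which it is itself a part. The other 9 had r between 0.75 (Gbp5) and 0.96 (Ifi47).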

How the data were processed

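Liver poly(A) RNA came from 3 mice of each genotype, 1 library per mouse. The deposited values are counts, whole numbers on 32212 rows named by symbol, which the authors made with Salmon 1.4.0 (submitters' processing notes) run on transcripts of GRCm38. The step from transcripts to gene rows is not given in the sources used here. All 6 columns were mapped to a sample.

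Fits used R 4.3.3 and edgeR 4.0.16: filterByExpr with a minimum count of 10 (13867 genes), TMM factors, robust quasi-likelihood fits of genotype, two-sided tests and Benjamini-Hochberg adjustment over all genes tested. The SE of a log2 fold change is its size divided by the square root of F. The floor of 3 counts and any interval cover counting error only. Alternatives were DESeq2 1.42.0, limma-voom (limma 3.58.1), library size alone, upper-quartile factors, other filters, a replicate block, a threshold of 0.01 and fits without each library. The procedure was tested on simulated data. Replicates of a genotype differed by more than sampling noise (chi-square per degree of freedom between 29.9 and 190).

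The 10 GTPases and all gene lists were chosen with earlier results of these data known. Every GTPase and signalling gene is named, apart from a gene counted in its list that is not reported here. Of the other pathway lists the 2 called genes with the largest change are named (neighbours, and genes set beside them, were chosen after their values were seen), and of marker lists the first 3 genes. Further markers, such as Mpo and the T and NK cell markers not called or not tested, were named after their values were seen. Of the listed symbols, 1 was resolved through RefSeq synonyms. Lengths, coordinates, neighbours and shared 31-base stretches come from the GENCODE annotation of GRCm38, and promoter windows from RefSeq GRCm38.p6. Python 3.11.15 with matplotlib 3.10.9 drew the figures.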

Additional observations from a re-analysis of the deposited data

How the results depend on the processing

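Of the 10 GTPases, 9 were called by edgeR, and also with DESeq2, limma-voom, library size alone, upper-quartile factors and a filter of at least 10 counts in every library. A filter of a total of at least 1 count left 6 calls, without Gbp2 (adjusted p = 0.0956), Igtp (0.0725) and Tgtp1 (0.103), and a threshold of 0.01 left 1, Gbp7. That threshold left 360 calls over all genes and 13 in the pathway lists, compared with 1726 and 42, and DESeq2 made 2592 calls over all genes. Fits that each left out 1 library called 3 to 9 GTPases, 394 to 2126 genes in all and 17 to 45 pathway genes, and the median of the 10 GTPases lay between 1.52 and 2.14. The fewest calls came without WT 3. In each of these fits the 9 genes remained higher in CgA-KO, and fewer libraries were tested. With library size alone the median of all genes was 0.26 and 86.6% of calls were higher, compared with 69.1% with TMM, and the median of the GTPases was 1.98. The sign of small changes varied. Over the fits without 1 library, Iigp1 ranged from -0.11 (without WT 3) to 0.21 (without WT 2), with -0.0036 without CgA-KO 2, Atl1 from -0.65 (without WT 2) to 0.068 (without WT 1), and Atl3 from -0.057 (without CgA-KO 1) to 0.095 (without CgA-KO 2), with 0.0019 without WT 2. Atl3, at -0.020 with TMM, was at 0.25 with library size alone, 0.039 with upper-quartile factors and 0.016 with at least 10 counts in every library. The cause of these shifts was not tested.

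The replicate numbers gave no clear pairing of the samples. Deviations from the genotype means of same-numbered libraries correlated at 0.20, 0.013 and -0.066, and 3 of 6 libraries correlated best with their own number. With 3 libraries per genotype, this check cannot exclude a pairing. With the replicate number as a block, 8 GTPases, 1498 genes in all and 44 pathway genes were called, and Gbp2 (adjusted p = 0.0657) and Socs3 (0.0853) were not.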
